A study of Homo sapiens with 6 samples.

Results

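The forkhead (FOX) genes encode transcription factors that share a winged-helix DNA-binding domain and are sorted by letter into subfamilies. The set described here holds every gene of the deposited table whose symbol starts with FOX, a letter from A to S and a digit. FOXB1 and FOXD3 were left out by definition, and the exclusion of antisense symbols removed 0 genes. This gave 47 of the 23284 genes in the table. Expression was measured by sequencing poly-adenylated RNA of WA01 cells, an established human embryonic stem cell line of wildtype genotype. Undifferentiated cells (ES, day 0), pre-neural crest cells (preNC, day 3) and neural crest cells (NC, day 5) were represented by 2 libraries each. All 6 libraries carry the same culture text, namely 3 µM CHIR99021, which turns on WNT signalling by blocking GSK3, and 20000 cells per cm2, so that text does not separate treated from untreated cells. Y-27632, which blocks ROCK kinases, was present at 10 µM at the start, in medium with 2% B27 and 0.5% bovine serum albumin, per the labels' protocols. All libraries derive from 1 cell line, and the labels do not say whether replicates were separate cultures.

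Forkhead factors act at many points of early development. FOXH1 carries the SMAD proteins activated by Nodal and activin to their target genes in pluripotent cells. FOXO factors are held out of the nucleus by PI3K and AKT signalling, and FOXM1 drives genes of the G2 and M phases of the cell cycle. Other members mark lineages, such as FOXA in endoderm and floor plate, FOXC, FOXF and FOXL in mesenchyme, and FOXE and FOXI in placodes. FOXD3 is a textbook regulator of both pluripotent cells and neural crest.

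Each gene has 1 value per stage in the authors' table, an FPKM (a fragment count corrected for the transcript's length and for depth) in which both libraries of the stage are combined. Differences are log2 ratios of these FPKM values, and ± precedes a standard error, taken as the ratio divided by the deposited test statistic. A gene was called higher or lower where the q (adjusted p) of the authors' Cuffdiff test was below 0.05. No spread between libraries could be computed, and sequencing depth is unknown. The stage labels were checked with marker genes. The summed FPKM of 7 embryonic stem cell markers was 2090, 1100 and 616 in stage order. The sum of 11 neural crest markers was 39.0, 42.3 and 206, and all 11 stood at an FPKM of 1 or more on day 5. FOXD3 is among the 11, and its fall from 17.9 to 0.876 by day 3 is part of that sum. By day 3, 7 of 10 tested markers were called higher and 2 lower (FOXD3 and ETS1). Over all tested genes, 8.96% were higher and 11.6% lower. No marker of 6 for endoderm reached an FPKM of 1 at any stage, and their sum lay between 0.332 and 1.09. For the other cell types checked, sums in stage order were 11.4, 6.88 and 4.61 for mesoderm and 35.1, 25.1 and 18.1 for endothelium. For surface ectoderm they were 9.05, 3.76 and 9.69, and for neurons 214, 327 and 148. The part of these cell types in the results below was not tested.

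Of the 47 forkhead genes, 17 stood at an FPKM of 1 or more at every stage and 19 at some stage, while 28 stayed below it throughout. On day 0 this was 38.3% of the forkhead genes, against 57.7% of all genes in the table. The genes on at every stage were FOXA3, FOXH1, FOXI3, FOXJ1, FOXJ2, FOXJ3, FOXK1, FOXK2, FOXM1, FOXN2, FOXN3, FOXO1, FOXO3, FOXO3B, FOXO4, FOXP1 and FOXP4. FOXL2 passed this level only on day 0 and FOXE3 only on day 5. FOXN1 and FOXR2 were listed at 0 at all stages.

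**Figure D1:**
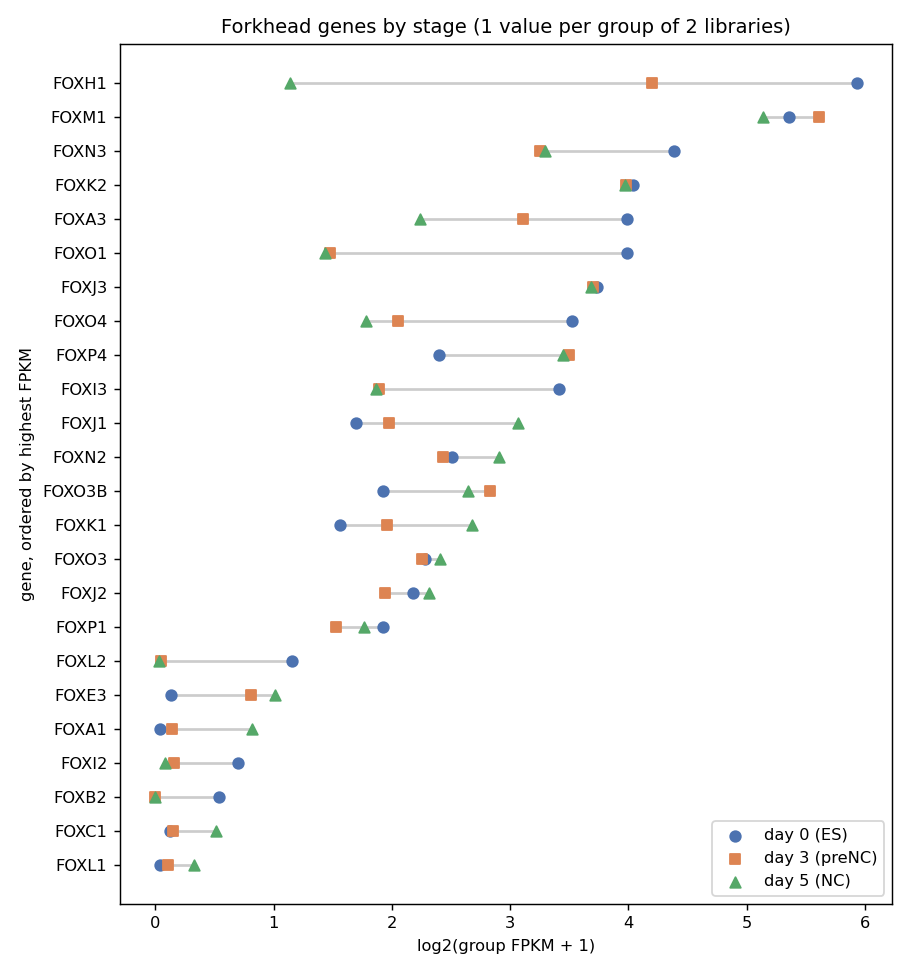
Level of the 24 forkhead genes that reached an FPKM of 1 or were called in some comparison, on the x axis as log2 of group FPKM plus 1, with genes on the y axis. Each symbol is the single value of a stage and the grey line joins lowest and highest. FOXH1 spans the widest range, from 60.2 to 1.21, whereas FOXJ3 and FOXK2 keep nearly the same value at every stage.

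The promoters of these genes differed in their content of CG dinucleotides, a property the choice of genes did not use. RefSeq promoter windows (GRCh38.p14, 250 bases before to 50 after the gene start) were matched by symbol for 36 of the 47 genes. The observed over expected CpG ratio had a median of 0.784 in these 36 and of 0.58 over all 27305 promoters. It ran from 0.607 to 1.19 in the 13 matched genes that were on at every stage. Among 16 matched genes below an FPKM of 1 throughout, apart from the near-identical FOXD4 copies, it ran from 0.095 to 1.02, and 5 lay below 0.6, a border often used for CpG islands. The 6 FOXD4 copies had ratios of 0.216 to 0.698. To show the contrast, the 100 bases upstream of the start are printed for the genes with the highest and the lowest ratio in each set, among those whose window begins at the gene's outer end. Capitals mark CG dinucleotides, and each sequence reads 5′ to 3′ on the gene's own strand.
FOXK2 (on at every stage, plus strand, chr17:82519632-82519731): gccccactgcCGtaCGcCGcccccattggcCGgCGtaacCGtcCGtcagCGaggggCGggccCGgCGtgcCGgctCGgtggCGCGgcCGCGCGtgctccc
FOXJ3 (on at every stage, minus strand, chr1:42335881-42335980): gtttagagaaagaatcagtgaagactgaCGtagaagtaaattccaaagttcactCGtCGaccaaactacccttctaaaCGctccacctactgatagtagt
FOXC1 (below 1 throughout, plus strand, chr6:1609815-1609914): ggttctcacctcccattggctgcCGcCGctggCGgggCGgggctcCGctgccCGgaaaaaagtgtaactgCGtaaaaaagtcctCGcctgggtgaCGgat
FOXR2 (listed at 0 throughout, plus strand, chrX:55623300-55623399): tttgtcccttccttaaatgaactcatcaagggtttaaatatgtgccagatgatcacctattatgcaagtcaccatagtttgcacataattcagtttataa
These windows hold 18 CG dinucleotides in FOXK2, 4 in FOXJ3, 9 in FOXC1 and 0 in FOXR2. FOXC1 shows that a CG-rich promoter also occurred in a gene below an FPKM of 1, so the ratios of both sets overlap.

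**Figure D2:**
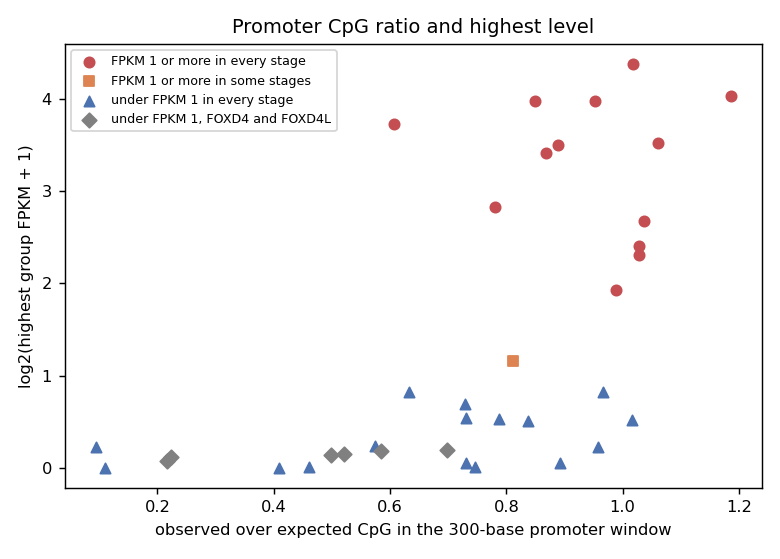
Observed over expected CpG in the 300-base promoter window (x axis) and log2 of the highest group FPKM plus 1 (y axis) for the 36 forkhead genes with a matched promoter, each point a gene. All 13 genes on at every stage sit at a ratio of 0.607 or more, and genes below an FPKM of 1 spread from 0.095 to 1.02.

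The same windows were searched on both strands for the TCF/LEF core CTTTGAT, through which WNT signalling acts, and the forkhead core TGTTTAC. The octamer ATGCAAAT of POU factors and the FOXH1 motif TGTGGATT were searched as well. A TCF/LEF core was found in 1 of 36 forkhead promoters, that of FOXR2, and in 2.64% of all promoters. A forkhead core was found in 1, that of FOXO4, and in 3.41% of all promoters. The octamer and the FOXH1 motif were in 0 of 36, against 1.80% and 0.80% of all promoters. These are matches of letters in a short window and say nothing about binding.

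The summed FPKM of the 47 genes fell in order of stage from 228.3 to 154.5 and 132.6. FOXH1 made up 26.4% of the day 0 sum and 11.3% on day 3, and its fall accounted for 58.0% of the drop of the sum between these days. FOXM1 was the most abundant of the 47 on day 3 (30.9% of the sum) and on day 5 (25.9%). FOXB1 alone, at 73.6 on day 3, stood above every one of the 47 genes at that stage and equalled 47.6% of their sum. On day 0 and day 5, 12 and 10 of them stood above FOXB1. FOXD3, at 15.4 on day 5, was exceeded only by FOXM1. In RNA from whole cultures, fewer cells of a type and less RNA per cell cannot be told apart, and this holds for every difference given here.

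**Figure D3:**
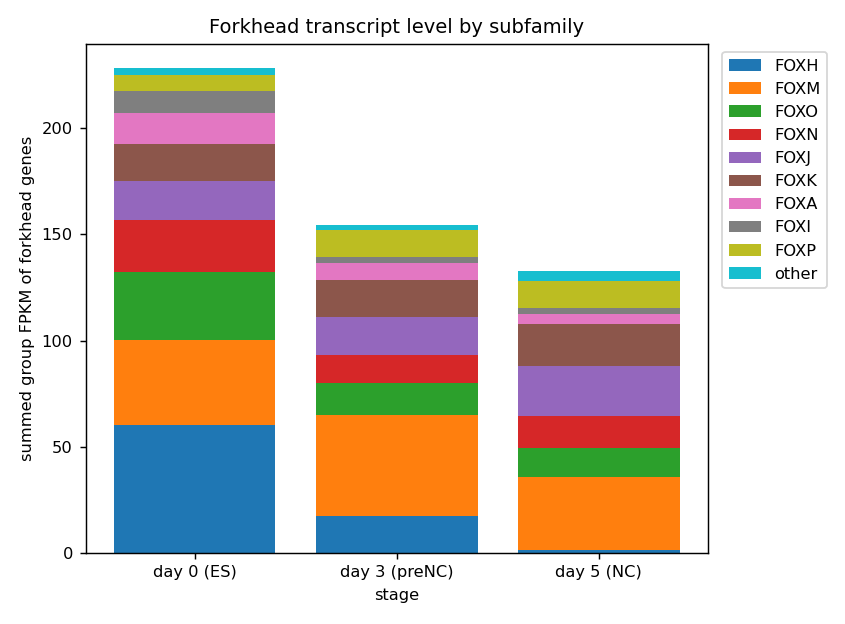
Stacked bars of the summed group FPKM (y axis) of the 47 forkhead genes at each stage (x axis), coloured by subfamily, with the smaller subfamilies pooled as other. The FOXH part shrinks from 60.2 to 1.21, the FOXO part from 32 to 13.7, and the FOXJ and FOXK parts end at 23.2 and 20.1 after 18.0 and 17.4 on day 0.

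Between day 0 and day 3, falls outnumbered rises. The tested genes numbered 24, of which 9 were called lower and 3 higher, or 37.5% and 12.5%. Over all 16231 genes tested in this step, 11.6% were called lower and 8.96% higher. The 9 that fell were FOXA3, FOXB2, FOXH1, FOXI2, FOXI3, FOXL2, FOXN3, FOXO1 and FOXO4. FOXE3, FOXO3B and FOXP4 rose. With a q threshold of 0.01, the rises were reduced to 1, FOXP4 (5.83% of all tested genes rose), and the falls to 7 (7.99%). The median log2 ratio of the 18 members at an FPKM of 1 or more in either group, with 1 added to each FPKM, was -0.16, and 13 of the 18 were lower. Over all such genes it was 0.0384. Over the 45 members above 0 in either group it was 0.011.

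Between day 3 and day 5, fewer members changed. Of 26 tested, FOXA1, FOXC1 and FOXK1 were called higher (11.5%) and FOXA3 and FOXH1 lower (7.69%). The share over all 15932 tested genes was 5.93% higher and 6.68% lower. Across the whole course, 6 of 29 tested genes were higher on day 5 than on day 0 (FOXA1, FOXC1, FOXE3, FOXK1, FOXL1 and FOXP4) and 8 lower (those that fell by day 3, without FOXL2). That is 20.7% and 27.6%, against 12.2% and 14.7% of all 16409 genes tested. The comparisons share their groups, so these counts are not independent of each other. In all, 16 of the 47 genes were called in some comparison, 29 were tested in some comparison, and 18 were never tested. The share of all genes called in some comparison was not computed, so the 16 have no background beside them. Since low genes were tested only where their value was high enough in some group, the shares refer to tested genes and not to the family.

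Other call rules changed these small counts. At the threshold of 0.01, 1 member rose and 1 fell between day 3 and day 5, beside 3.68% and 3.89% of all genes, and 3 rose over the whole course, beside 8.34%. At 0.10, 5 members rose between day 3 and day 5, beside 7.89%. With p recomputed from the test statistic under a normal distribution (the normal p), 1 member fell between day 3 and day 5 (4.47% of all genes) and 10 were higher on day 5 than on day 0 (7.54%). Among genes at an FPKM of 1 or more in either group, 1 member rose between day 3 and day 5 (5.85% of such genes) and 3 over the whole course (12.5%).

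**Figure D4:**
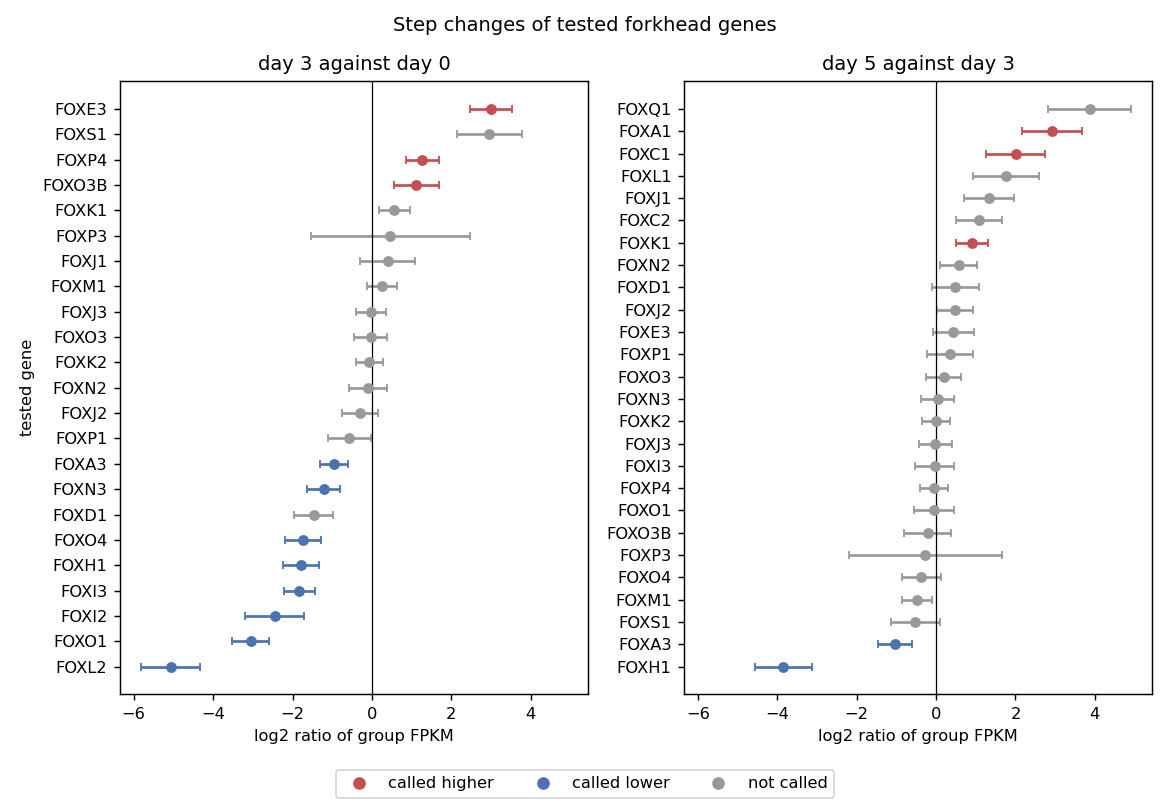
Log2 ratio of group FPKM (x axis) for each tested forkhead gene (y axis) between day 0 and day 3 (left) and between day 3 and day 5 (right), with bars of 1 standard error implied by the deposited test statistic. Red marks genes called higher, blue genes called lower and grey genes not called, and FOXB2, listed at 0 on day 3, has no ratio and is not drawn. FOXL2 and FOXO1 lie farthest to the left on day 3, and FOXH1 on day 5.

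The 47 genes were sorted by their calls at both steps. Of them, 7 fell by day 3 and were not called or not tested after that, and 2 fell at both steps. Another 3 were called higher at the first step alone and 3 at the second alone. Of these last 3, FOXA1 and FOXC1 were not tested at the first step. The remaining 32 were called at neither step. The rise and fall of FOXB1 (3.77, 73.6 and 4.08) was seen in 0 of 21 forkhead genes tested at both steps by the Cuffdiff q, and the fall and return of FOXD3 (17.9, 0.876 and 15.4) also in 0 of 21. By unadjusted p below 0.05 both counts were 0 as well. Among all 15564 genes tested at both steps, 1.77% rose and then fell, 1.12% fell and then rose, and 1.67% fell at both steps. For the courses with 1 called step, no share over all genes was computed.

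FOXH1, the partner of Nodal-activated SMADs, had FPKM values of 60.2, 17.4 and 1.21 in stage order. The 3 values descend in order, and both steps were called. It fell by 1.79 ± 0.44 on the log2 scale at the first step and by 3.85 ± 0.71 at the second, each at q = 0.000596 in the authors' deposited table, the smallest q it holds. Day 5 was 49.8-fold below day 0. FOXH1 shares its locus in the table with KIFC2, whose own values were 5.89, 5.20 and 1.85 and which was called lower at the second step.

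Genes of the Nodal pathway around FOXH1 changed mostly at the first step. Of 13 tested, 4 were called lower by day 3 (NODAL, LEFTY1, LEFTY2 and TDGF1) and 1 higher (SMAD3). Over all tested genes, 11.6% were lower and 8.96% higher in this step, and the counts of all partner lists are to be read against such shares. Between day 0 and day 5, 3 of 14 were lower and 2 higher. By the normal p, 5 were lower and 1 higher, beside 11.4% and 7.54% of all tested genes. GDF3 went from 7.21 to 0.0274 and 0.0650 without a call. NODAL, the ligand, went from 1.97 to 0.335 and 0.312, and LEFTY2 from 2.74 to 0.444 and 0.0774. The co-receptor TDGF1 went from 345 to 0.573, and the feedback inhibitor LEFTY1 from 4.34 to 0.147. SMAD3, a transducer of the pathway, rose from 2.52 to 8.69 (log2 1.79 ± 0.41). From day 3 to day 5, 0 of 12 tested genes of this list were called by the Cuffdiff q, and 0 at an unadjusted p below 0.05 or by the normal p. The 4 that fell were already below an FPKM of 1 on day 3, so a further fall could hardly be called. LEFTY1 and GDF3 were not tested at this step. The median log2 ratio of the list, with 1 added to each FPKM, was -0.0812 at the first step and -0.10 at the second. It covers 13 and 8 list genes at an FPKM of 1 or more in either group, and all such genes gave 0.0384 and -0.0516.

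The FOXO subfamily split. FOXO1 (chromosome 13, 41129801 to 41240734, hg19), a factor of stress resistance and metabolic control, had values of 14.9, 1.78 and 1.71. It was thus high on day 0 only. The fall to day 3 was 8.33-fold (log2 -3.06 ± 0.46, q = 0.000596 in the authors' deposited table), and the second step was not called (log2 -0.0604 ± 0.50). FOXO4 (chromosome X, 70315999 to 70323384) had the same shape, with 10.5, 3.16 and 2.44, and fell 3.33-fold by day 3 (log2 -1.73 ± 0.45, with the same q). FOXO3 (chromosome 6, 108881026 to 109005971) stayed at 3.87, 3.78 and 4.31 and was called in no comparison. Its log2 difference between day 0 and day 3 was -0.0325 ± 0.41. FOXO1 was thus 3.84 times the level of FOXO3 on day 0 and 0.471 times on day 3. Whether FOXO1 and FOXO3 differ in their change was not tested. FOXO3B is a copy of FOXO3 on chromosome 17 (18561742 to 18585572), so reads may be split between them. It went from 2.81 to 6.11 and then 5.26, and the rise to day 3 reached q = 0.0434 in the authors' deposited table but did not pass by the normal p. ZNF286B, which overlaps it, went from 4.68 to 9.53 and 7.79 and was also called higher on day 3. How far reads of ZNF286B enter the value of FOXO3B was not tested.

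**Figure D5:**
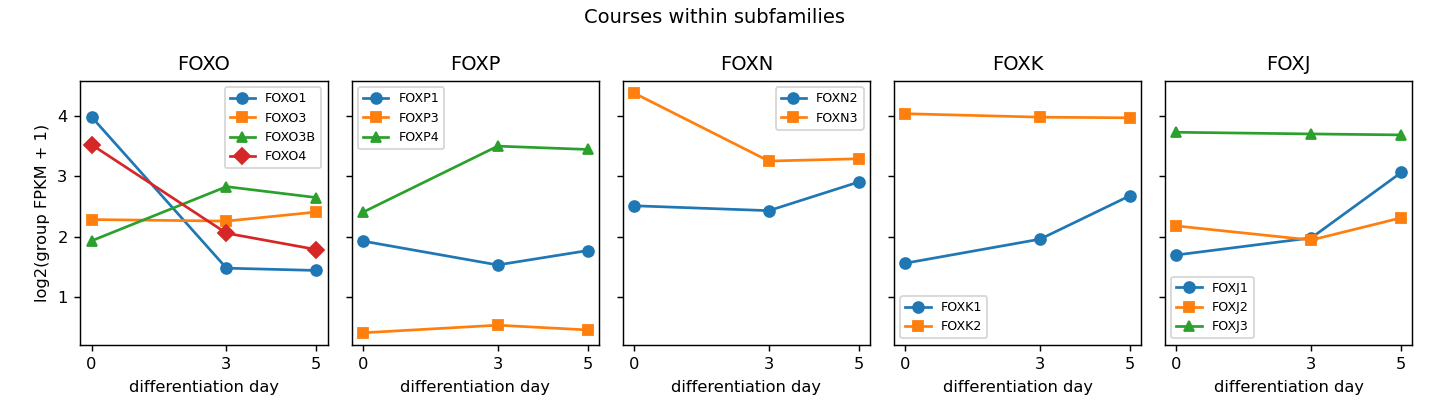
Courses of the genes of 5 subfamilies over differentiation day (x axis), each line joining the 3 group values of a gene as log2 of FPKM plus 1 (y axis). FOXO1 and FOXO4 drop between day 0 and day 3 while FOXO3 stays near an FPKM of 4, FOXP4 rises while FOXP1 does not, FOXN3 drops while FOXN2 does not, and FOXK1 climbs toward the steady FOXK2.

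For kinases and other regulators of FOXO proteins, calls in RNA were counted in the same way. Of 21 tested, 3 were called lower by day 3 and 0 higher by the Cuffdiff q, beside 11.6% and 8.96% of all tested genes. At an unadjusted p below 0.05, 4 were higher. Between day 3 and day 5, 0 were called by the Cuffdiff q, beside 6.68% lower and 5.93% higher over all tested genes. In that step 4, all higher, had an unadjusted p below 0.05. The normal p called 0 higher and 1 lower by day 3, and 0 between day 3 and day 5. SGK1, a kinase that phosphorylates FOXO proteins, fell from 5.89 to 1.58, SGK3 from 1.92 to 0.510, and the deacetylase SIRT1 from 32 to 18.6. PIK3R1, SGK2 and STK3 were higher on day 5 than on day 0, PIK3R1 at 6.07 against 2.49 and STK3 at 12.5 against 7.08, while 2 were lower. Over all genes tested between these days, 12.2% were higher and 14.7% lower. Among 21 tested genes known as FOXO targets, 6 rose and 3 fell by day 3 (8.96% and 11.6% of all tested genes), and 2 rose and 2 fell between day 3 and day 5 (5.93% and 6.68%). TXNIP, an inhibitor of thioredoxin, rose from 13.9 to 43.7 and on to 84.4. CITED2, a transcriptional co-regulator, rose from 75.1 to 268, and BCL6, a transcriptional repressor, from 2.98 to 10.1. SESN3, a sestrin that restrains TORC1, went from 10.9 to 31.2 and 46.7. The receptor ERBB3 fell from 12.8 to 2.86. GADD45A, a stress response gene, went from 18.7 to 31.5 and 65.1, BBC3, which promotes apoptosis, from 29.6 to 23.4 and 12.8, and TRIB1 from 21.5 to 9.51 and 5.39. By day 5, 7 were higher and 4 lower than on day 0, with a median log2 ratio of FPKM plus 1 of 0.228, beside -0.0147 for all genes.

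FOXM1 (chromosome 12, 2945982 to 2986321), the activator of G2 and M phase genes, had values of 40.0, 47.8 and 34.3. No comparison of FOXM1 was called, and its largest log2 difference was -0.48 ± 0.38, between day 3 and day 5. Of 27 G2 and M phase genes tested, 2 were called higher and 1 lower by day 3, and 1 each way between day 3 and day 5. Between day 0 and day 5, 5 were higher (LIN54, CENPA, CENPE, CENPF and NEK2) and 1 lower, MYBL2, beside 12.2% and 14.7% of all tested genes. CENPA, the centromeric histone, went from 15.8 to 17.6 and 34.6, and the kinase NEK2 from 17.1 to 22.1 and 35.1. LIN54 went from 2.22 to 3.98 and 4.05. CENPF, a kinetochore protein, went from 25.5 to 46.8 and 47.6, and the phosphatase CDC25B from 13.6 to 6.68 and 8.62. MYBL2, a partner of the MuvB complex, stood at 75.3, 77.2 and 41.1 and fell at the second step (log2 -0.91 ± 0.32). CCNB1 (135, 126 and 134) and PLK1 (85.1, 69.5 and 69.8) were not called. The median log2 ratio of the 27 genes lay between -0.0197 and 0.11 over the 3 comparisons.

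Among the FOXP genes, which act mostly as repressors, FOXP4 (chromosome 6, 41514164 to 41570122) was at 4.29, 10.3 and 9.90. Both later stages lay above day 0, and the rise to day 3 was 2.41-fold (log2 1.27 ± 0.42, q = 0.000596 in the authors' deposited table). FOXP1, at 2.80, 1.89 and 2.41, was not called. FOXP2, known for its role in speech circuits, stayed at or below 0.169 and was not tested. FOXP3, the factor of regulatory T cells, lay between 0.323 and 0.443 with a wide implied standard error (2.01 on the log2 scale at the first step), and overlaps CCDC22 at 6.41 to 8.68.

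FOXN3 (chromosome 14, 89622516 to 90085494), a repressor linked to checkpoint control, was at 19.9, 8.54 and 8.79. It fell 2.33-fold by day 3 (log2 -1.22 ± 0.42, q = 0.000596 in the authors' deposited table), and its second step was not called. FOXN2, at 4.70, 4.39 and 6.5, was not called. FOXN4 lay between 0.158 and 0.178.

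The FOXK and FOXJ genes were mostly steady. FOXK2 had values of 15.4, 14.8 and 14.7, and FOXJ3 12.3, 12.0 and 11.9, so that their highest and lowest stages differed least among the genes on throughout. FOXK1 (chromosome 7, 4721930 to 4811074), which with FOXK2 restrains autophagy genes, climbed from 1.94 to 2.88 and 5.40. Its second step was called (log2 0.91 ± 0.40, q = 0.0179 in the authors' deposited table), but was lost by the normal p. Day 5 was 2.78-fold above day 0, at q = 0.000596 in the authors' deposited table, and this call held. FOXJ2 stood at 3.52, 2.84 and 3.96. In all, 8 of the 17 genes on at every stage were called in no comparison, namely FOXJ1, FOXJ2, FOXJ3, FOXK2, FOXM1, FOXN2, FOXO3 and FOXP1. Their highest value was between 1.03 and 3.29 times their lowest. The share of uncalled genes among all genes on at every stage was not computed.

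FOXJ1, the master regulator of motile cilia, accounts for the upper end of that range. It was at 2.24, 2.94 and 7.36, highest on day 5, with a log2 difference between day 0 and day 5 of 1.72 ± 0.60 and q = 0.0601 in the authors' deposited table. Its locus in the table (chromosome 17, 74132415 to 74236390) spans RNF157, at 3.66, 4.43 and 3.67, and LOC100507218. Motile cilium genes counted 5 higher and 1 lower of 13 tested by day 3, where 8.96% of all tested genes were higher and 11.6% lower. They counted 2 higher and 1 lower of 14 between day 3 and day 5 (5.93% and 6.68% of all), and 6 higher and 1 lower of 14 between day 0 and day 5 (12.2% and 14.7% of all). TEKT2, a tektin of the axoneme, went from 1.06 to 4.18 and 6.48, and RFX3, a ciliogenic factor, from 5.45 to 5.89 and 13.5. GMNC, a regulator upstream of multiciliated cells, went from 0.0188 to 0.0323 and 1.95. The dynein gene DNAH9 was high on day 3 only (0.102, 4.38 and 0.220). RFX2 went from 1.23 to 3.45 and 3.59, and MYB fell from 3.04 to 1.25 and 0.786. RFX4 went from 0.108 to 9.06 and 13.4 without a call in the authors' test. DNAI1, DNAI2, DNAH5, TEKT1, RSPH1, CCNO and DYNLRB2 stayed below an FPKM of 1 and were called in no comparison. CCDC39 and CCDC40 stood above that level at every stage and were not called. DNAH11 went from 1.28 to 0.0813 and 0.0563, also without a call. The median log2 ratio between day 0 and day 5 was 0.996, beside -0.0147 for all genes. It covers only the 10 list genes at an FPKM of 1 or more in either group, of 19 in the table.

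FOXA3 (chromosome 19, 46367518 to 46377055), a liver and gut endoderm factor, was at 14.9, 7.65 and 3.72. It fell by similar amounts at both steps, by 0.96 ± 0.36 and then by 1.04 ± 0.42 on the log2 scale, with q values of 0.0242 and 0.0251 in the authors' deposited table. Neither step passed when p was recomputed from the test statistic under a normal distribution, whereas the whole fall from day 0 to day 5 (log2 -2.00 ± 0.41) did. FOXA1 went the other way at a low level, with 0.0301, 0.10 and 0.761, and its rise from day 3 to day 5 reached q = 0.00324 in the authors' deposited table. FOXA2, at 0.0934, a listed 0 and 0.0465, was not tested. Genes that act beside FOXA in endoderm and floor plate gave 3 higher and 1 lower of 6 tested by day 3, with 15 on the list, and 1 higher and 1 lower of 5 between day 3 and day 5. Between day 0 and day 5, 2 of 6 were higher and 0 lower by the Cuffdiff q, with 1 lower at an unadjusted p below 0.05 and 1 by the normal p. NKX6-1, a ventral neural tube and pancreas factor, rose from 0.160 to 2.86 and stood at 1.59 on day 5. CER1, an inhibitor of Nodal, was the gene that fell by day 3 (0.768 to 0.170). SPON1, a floor plate matrix protein, rose at both steps (0.684, 4.22 and 22.7), and the guidance factor NTN1 rose and then fell (2.13, 5.05 and 1.38). SOX17, which defines endoderm, was at most 0.0491, and HNF4A at most 0.0242.

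Of the placode-linked genes, FOXI3 (chromosome 2, 88747726 to 88752053) had values of 9.66, 2.72 and 2.65. It fell 3.56-fold by day 3 (log2 -1.83 ± 0.39, q = 0.000596 in the authors' deposited table) and its second step was not called. FOXI2 fell with it, from 0.620 to 0.114 (log2 -2.45 ± 0.74) and 0.0564, and FOXI1 was at most 0.0077. FOXE3, a lens factor, rose from 0.0945 to 0.753 and 1.02 (log2 2.99 ± 0.54 at the first step, q = 0.0411 in the authors' deposited table). FOXE1 was at most 0.00767. Of the surface ectoderm and placode partner genes, 4 were higher and 1 lower of 7 tested by day 3, 4 higher and 1 lower of 9 between day 3 and day 5, and 4 higher and 0 lower of 9 between day 0 and day 5, all by the Cuffdiff q. The unadjusted p and the normal p also gave 0 lower in that last comparison. The separate list of surface ectoderm markers had 1 lower of 2 tested by day 3. Its sum was 9.05, 3.76 and 9.69 in stage order. Between day 3 and day 5, 2 of its 2 tested markers were higher, GATA3 and TFAP2C, beside 5.93% of all tested genes. The marker that fell was GRHL2, an epithelial regulator, from 6.41 to 0.0884 and 0.061. TFAP2A, shared by surface ectoderm and neural crest, went from 0.108 to 1.11 and 11.8, DLX5 from 0.0966 to 1.72 and 2.04, and GATA3 from 0.00952 to 0.108 and 1.84. GATA2 went from 0.0787 to 0.227 and 1.55. EYA2 rose and then fell (0.60, 2.74 and 1.22), and SIX4 fell and then rose (5.74, 2.90 and 5.32). KRT5, a keratin of stratified epithelium, was at 0.0330 on day 0 and listed at 0 after that.

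FOXL2, an ovarian and pituitary factor, was at 1.23, 0.0365 and 0.0195. The fall to day 3 (log2 -5.07 ± 0.73) reached q = 0.0282 in the authors' deposited table, but the larger difference of day 5 from day 0 (log2 -5.98 ± 1.02) had a q of 0.112 there and was not called. FOXB2, the closest relative of FOXB1, was at 0.454 on day 0 and listed at 0 on day 3 and day 5. It was called lower at q = 0.000596 in the authors' deposited table, without a usable test statistic, and no ratio is given. FOXB1 and FOXB2 thus had opposite directions at the first step. FOXD1 stood at 0.761, 0.276 and 0.386 and was not called (q of 0.067 at the first step in the authors' deposited table).

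FOXC1, FOXC2, FOXF1, FOXF2, FOXL1 and FOXQ1 lie in 2 clusters, and all 6 stayed below an FPKM of 1. On chromosome 6, FOXQ1 (1312675 to 1314993), FOXF2 (1390069 to 1395832) and FOXC1 (1610681 to 1614129) are neighbours, with gaps of 75075 and 214848 bp. FOXC1 went from 0.0913 to 0.107 and 0.429, and its second step was called (log2 2.00 ± 0.75, q = 0.0152 in the authors' deposited table) but did not pass by the normal p, whereas day 5 against day 0 did. FOXQ1 went from 0.0156 to 0.0287 and 0.420 without a call, and FOXF2 from 0.0112 to 0.00805 and 0.164 without a test. On chromosome 16 the neighbours are FOXF1 (86544133 to 86548070), FOXC2 (86600857 to 86602537) and FOXL1 (86612115 to 86615304). FOXC2 went from 0.0337 to 0.284 and 0.602, FOXL1 from 0.0272 to 0.0755 and 0.256, and FOXF1 from 0.0129 to 0.00498 and 0.0577. FOXL1 was called higher on day 5 than on day 0 (log2 3.23 ± 1.06, q = 0.0411 in the authors' deposited table). Each of these 6 genes had its highest value on day 5.

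Of 20 members below an FPKM of 1 at every stage, above 0 at some stage and outside the FOXD4 copies, 11 (55%) were highest on day 5, against 38.2% of all 6131 genes of that level. The 6 cluster genes are among these 11. Outside these 2 clusters, 5 of 14 (35.7%) were highest on day 5 and 6 (42.9%) on day 0. The 5 include FOXD2, which lies 17964 bp from FOXE3 on chromosome 1, and both were highest on day 5. The genes outside these 2 clusters therefore still include one with a close forkhead neighbour. Whether such neighbourhood goes with the stage of the highest value was not tested. Of the 19 members that reached an FPKM of 1, 10 (52.6%) were highest on day 0, against 37.3% of all 14573 such genes. Partner genes of head and lateral mesenchyme were counted as well. By the Cuffdiff q, 0 of 6 tested changed by day 3, where 4 had an unadjusted p below 0.05 and 2 passed by the normal p. Over all tested genes, 8.96% were higher and 11.6% lower in that step. Between day 3 and day 5, 1 of 8 rose, MEOX1 (0.0529 to 0.920), beside 5.93% of all tested genes. Between day 0 and day 5, 2 of 9 were higher, PRRX2 (5.07 to 11.1) and MEOX1, beside 12.2% of all tested genes. TWIST1 was at most 0.474.

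FOXS1, found in sensory neurons and pericytes, went from 0.0673 to 0.523 and 0.364 without a call (log2 2.96 ± 0.82 at the first step, q = 0.121 in the authors' deposited table). FOXD2 and FOXR1 were at most 0.0376. FOXD4 and its copies FOXD4L1, FOXD4L3, FOXD4L4, FOXD4L5 and FOXD4L6 lay between 0.00504 and 0.144 and were not tested. All 6 were higher on day 5 than on day 0, but their near-identical sequences share reads, so they do not count as separate genes.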

How the data were processed

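WA01 cells at 3 stages (2 libraries each) were compared. Tools named in the submitters' processing notes are Cuffdiff 2.1.1, TopHat2 2.0.10 and TopHat, with hg19 as the build. Neither the annotation nor strandedness is stated there. The authors deposited a table of 3 comparisons (69852 rows, 23284 genes), which per the file headers gives FPKM per group, a test statistic (a score), and a p-value and q-value. Adjusting the deposited p by Benjamini-Hochberg over 48572 tested rows returned the deposited q (largest difference 5.25e-07), and the smallest p is 5e-05. The deposited fold change column holds spreadsheet errors, so ratios were computed from FPKM, and list medians from log2 of FPKM plus 1 over genes at an FPKM of 1 or more in either group. Start positions are printed counted from 1. Python 3.11.15, pandas 2.3.3 and scipy 1.17.1 were used, and the adjustment was tested on simulated data. Every member at an FPKM of 1 or called was named, and from the partner lists up to 4 called genes with the largest change, plus genes needed to make a count clear. CCNB1, PLK1, SOX17, HNF4A, KRT5, TWIST1, RFX4, GDF3, SPAG6, DNAH11, CCDC39 and CCDC40 were added after their values were seen. A member and its partner list are not reported here. Members and lists were chosen with earlier results of these data known. Since only group values were used, depth and the spread between replicates are unknown. The p-values measure only the spread between these samples, which may be technical. Promoter windows and the CpG border were chosen after the data were seen.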

Additional observations from a re-analysis of the deposited data

How the results depend on the processing

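No paired analysis was possible because the table used holds 1 value per group, and for the same reason no replicate could be left out. Of 60 values recomputed under other settings, 45 kept their size (counts within 1.5 times, medians within 0.1 and of the same sign). At a q threshold of 0.01 the genes called higher numbered 1 by day 3, 1 between day 3 and day 5 and 3 between day 0 and day 5, and those lower between day 3 and day 5 numbered 1. At a threshold of 0.10, 5 were higher between day 3 and day 5. With p recomputed from the test statistic under a normal distribution, 1 was lower between day 3 and day 5 and 10 were higher between day 0 and day 5. Requiring FPKM 1 in either group left 1 higher between day 3 and day 5 and 3 between day 0 and day 5, because FOXA1, FOXC1 and FOXL1 lie below it. The median log2 ratio of the members was -0.16 by day 3, -0.0135 between day 3 and day 5 and -0.0684 between day 0 and day 5. Over all members above 0 in either group it was 0.011, 0.0326 and 0.0476. Rescaling without the 3 genes of largest FPKM shifted all genes by 0.15 between day 3 and day 5 and by 0.13 between day 0 and day 5, and the medians became 0.12 and 0.0578. Centring on all genes gave 0.0471 between day 3 and day 5. The sign of the members' median is therefore not settled by these data. Of 29 called ratios, 29 kept their direction after centring. Of 31 calls, 21 held at a q of 0.01, and of 29 with a usable statistic 24 held under the normal p. The 5 lost were both steps of FOXA3, the second steps of FOXC1 and FOXK1, and the first step of FOXO3B. The cause was not tested.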

Other observations

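Of the 47 forkhead genes, 9 overlap another gene in the table. RFX4, a motile cilium list gene, and FOXQ1 differ many-fold between stages without a call in the authors' test, FOXQ1 with a log2 difference of 4.75 ± 1.32 between day 0 and day 5 at q = 0.298 in the authors' deposited table. FOXC2 (log2 4.16 ± 1.23 between day 0 and day 5, q of 0.118 there) and FOXL2 are further members where a ratio several times its implied standard error was not called, so the absence of a call at this level does not show an unchanged gene.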
